A study of Mus musculus with 14 samples.

Results

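The stanniocalcins Stc1 and Stc2, the hormone-like factors Gdf15 and Fgf21, the endoplasmic reticulum stress factors Manf and Creld2, and the lipase inhibitor Angptl4 are secreted products of cells under protein-folding or nutrient stress. These 7 genes were taken by symbol from a table of 24015 genes in 14 RNA libraries of mouse embryonic fibroblasts, and all 7 passed the filter on low counts. The fibroblasts, primary connective-tissue cells, were prepared from strain 129s2 embryos of day 14.5 and used at passages 3 to 4. They were wild type or SirT7-/-, that is, without the NAD-dependent deacylase SirT7, and were kept for 18 hours in normal medium or in medium without glucose. The groups were WT-NT (wild type, normal medium, n = 4), WT-GS (wild type, no glucose, n = 3), KO-NT (SirT7-/-, normal medium, n = 4) and KO-GS (SirT7-/-, no glucose, n = 3). A library is named by its group and replicate number. The labels do not say which cultures or embryos the replicates came from, so each p-value reflects only how far these samples vary, which may be technical variation.

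Glucose supplies the sugars that are attached to proteins in the endoplasmic reticulum, and its loss leads to misfolded proteins there. The sensors ATF6, IRE1 with its product XBP1, and PERK with its products ATF4 and CHOP then raise chaperones, folding enzymes and several secreted factors. Manf and Creld2 are resident in the endoplasmic reticulum and leave the cell under stress, Stc2 and Stc1 bind and inhibit the pappalysin proteases that free insulin-like growth factors, Gdf15 and Fgf21 signal to distant tissues, and Angptl4 inhibits lipoprotein lipase.

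Promoters are shown because the members that rose and those that did not are both known as stress targets, and response elements before their start sites can be read from the letters. RefSeq start sites of build GRCm38.p6 were found for 4 of the 7 members (Stc2, Gdf15, Fgf21 and Creld2), with windows of 250 bases before to 50 after the start. Creld2 is shown at chr15:88819396-88819695 (plus strand), Fgf21 at chr7:45615441-45615740 (minus strand) and Stc2 at chr11:31370012-31370311 (minus strand), each written 5′ to 3′ along its gene. Capitals mark a match to the ERSE, the endoplasmic reticulum stress element (CCAAT, then 9 bases of any kind, then CCACG), in Creld2 and to the C/EBP-ATF element (TGATGNAA), which ATF4 can bind, in Fgf21.
Creld2: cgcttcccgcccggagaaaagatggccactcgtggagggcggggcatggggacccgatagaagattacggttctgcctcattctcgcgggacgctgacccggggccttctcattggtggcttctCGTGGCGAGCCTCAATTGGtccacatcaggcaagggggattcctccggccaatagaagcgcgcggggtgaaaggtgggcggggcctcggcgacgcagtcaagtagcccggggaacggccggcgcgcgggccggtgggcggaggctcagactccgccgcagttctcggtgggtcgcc
Fgf21: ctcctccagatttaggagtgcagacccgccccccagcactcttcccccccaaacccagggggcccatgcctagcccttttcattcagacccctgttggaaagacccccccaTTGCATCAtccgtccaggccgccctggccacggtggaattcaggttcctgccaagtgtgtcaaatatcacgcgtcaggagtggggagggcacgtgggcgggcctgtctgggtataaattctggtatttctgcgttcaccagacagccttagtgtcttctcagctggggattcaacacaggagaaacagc
Stc2: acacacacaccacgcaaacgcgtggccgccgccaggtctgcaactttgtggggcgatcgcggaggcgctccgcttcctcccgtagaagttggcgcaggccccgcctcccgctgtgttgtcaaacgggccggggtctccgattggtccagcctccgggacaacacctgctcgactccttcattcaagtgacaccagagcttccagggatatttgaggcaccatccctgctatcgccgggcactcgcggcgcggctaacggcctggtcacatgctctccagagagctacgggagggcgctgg
Both strands were searched, and both matches lie on the strand opposite to the gene, with the first capital at position -126 from the start site in Creld2 and at -139 in Fgf21. The ERSE letters occur in 0.119% of 32851 RefSeq promoter windows of the same length, and the C/EBP-ATF letters in 3.97%. Neither motif was found in the Stc2 window or in either of the 2 Gdf15 windows, which are not shown, and neither were the related ERSE-II (ATTGG, then 1 base of any kind, then CCACG), the core TGACGTGG of the unfolded protein response element, or the PPAR element (AGGTCA repeated after 1 base). Shorter letters were searched too. CCACG, the last part of the ERSE, was found 2 times each in the Stc2, Fgf21 and Creld2 windows, and occurs in 32.8% of all windows. The core ACGTG of the hypoxia element was found in the Fgf21 window and in 1 of the 2 Gdf15 windows, and occurs in 19.6%. A match describes letters and shows neither binding nor use of the element, and a missing match concerns only this window and these letters.

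Total counts per library ran from 59788270 to 91607861, so that a count of 0 allowed a level of up to 0.0327 to 0.0502 CPM (counts divided by the total of the library and scaled), for counting error only and taking 3 counts as the limit. Sirt7 itself was at 16.9 to 23.1 CPM in wild-type libraries and at 0.301 to 1.41 CPM in those labelled SirT7-/-. All 10 fibroblast markers listed, such as Col1a1 and Pdgfra, were detected in each library. The media were less clear than the genotypes. Each library was placed on a line from the mean of WT-NT at 0 to the mean of WT-GS at 1, over 5081 genes called for starvation in wild-type libraries, with all listed genes left out. On it KO-NT 4, by its label in normal medium, lay at 0.845, and KO-GS 3, by its label starved, at 0.191, while KO-NT 1 to 3 lay at -0.0161 to 0.0593 and KO-GS 1 and 2 at 0.868 and 0.91. Groups are used as labelled, and each result that rests on these 2 libraries is also given without them. Since they were set apart by starvation genes, calls for starvation in SirT7-/- cells without them are partly set by that choice.

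Manf, Creld2 and Stc2 were the members that rose in wild-type fibroblasts without glucose, while Stc1, Gdf15, Fgf21 and Angptl4 did not pass the test over all libraries. Manf is a small protein that binds the chaperone Hspa5 and is held in the endoplasmic reticulum until its calcium is depleted. It was at 128, 147, 128 and 104 CPM in WT-NT 1 to 4 and at 783, 642 and 692 CPM in WT-GS 1 to 3. The lowest starved library lay above the highest library in normal medium. Manf rose 5.73-fold, a log2 change of 2.52 (SE 0.67, edgeR adjusted p = 0.0261).

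Creld2, thought to help disulfide bonds form in secreted and matrix proteins, had the largest rise of the 7 members in this comparison. It was at 50.05, 57.0, 45.1 and 35.6 CPM in WT-NT 1 to 4 and at 529, 365 and 390 CPM in WT-GS 1 to 3. The groups did not overlap, and WT-GS 1 was the highest starved library for Creld2 as it was for Manf. Creld2 rose 9.38-fold (log2 change 3.23, SE 0.948, edgeR adjusted p = 0.0322).

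Stc2 is a glycoprotein that inhibits the pappalysins and is known to be raised by the unfolded protein response. It was at 9.05, 11.4, 9.66 and 9.52 CPM in WT-NT 1 to 4 and at 39.9, 37.8 and 32.0 CPM in WT-GS 1 to 3. The groups were again apart, with little spread on either side. Stc2 rose 3.80-fold (log2 change 1.93, SE 0.601, edgeR adjusted p = 0.0373).

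These 3 of 7 members were called higher and 0 lower at an edgeR adjusted p under 0.05, against a background in which 25.9% of 15666 genes were called in either direction, 12.9% higher and 13.1% lower. Scaling by library size alone left the 3 calls and gave 1496 genes higher and 2492 lower, in place of 2014 and 2049. The median log2 change was 0.72 over the 7 members and -0.039 over all genes tested. Non-overlapping groups were found for the same 3 members, higher in WT-GS, where 22.4% of all genes did so, and for Angptl4, lower in WT-GS, where 22.1% did so. The test pools its spread over all groups, libraries KO-NT 4 and KO-GS 3 included, and its calls moved with single libraries, controls included: leaving out WT-NT 1, WT-NT 3 or any 1 of the WT-GS libraries left 0 members called, leaving out WT-NT 2 left 1, and leaving out WT-NT 4 left 2. When edgeR was fitted to the 7 wild-type libraries only, where 33.8% of genes were called, the edgeR adjusted p was 6.95e-05 for Manf, 0.000112 for Creld2 and 0.000116 for Stc2. In that fit the 3 genes were called whichever library was left out, with edgeR adjusted p-values of at most 0.00111.

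**Figure D1:**
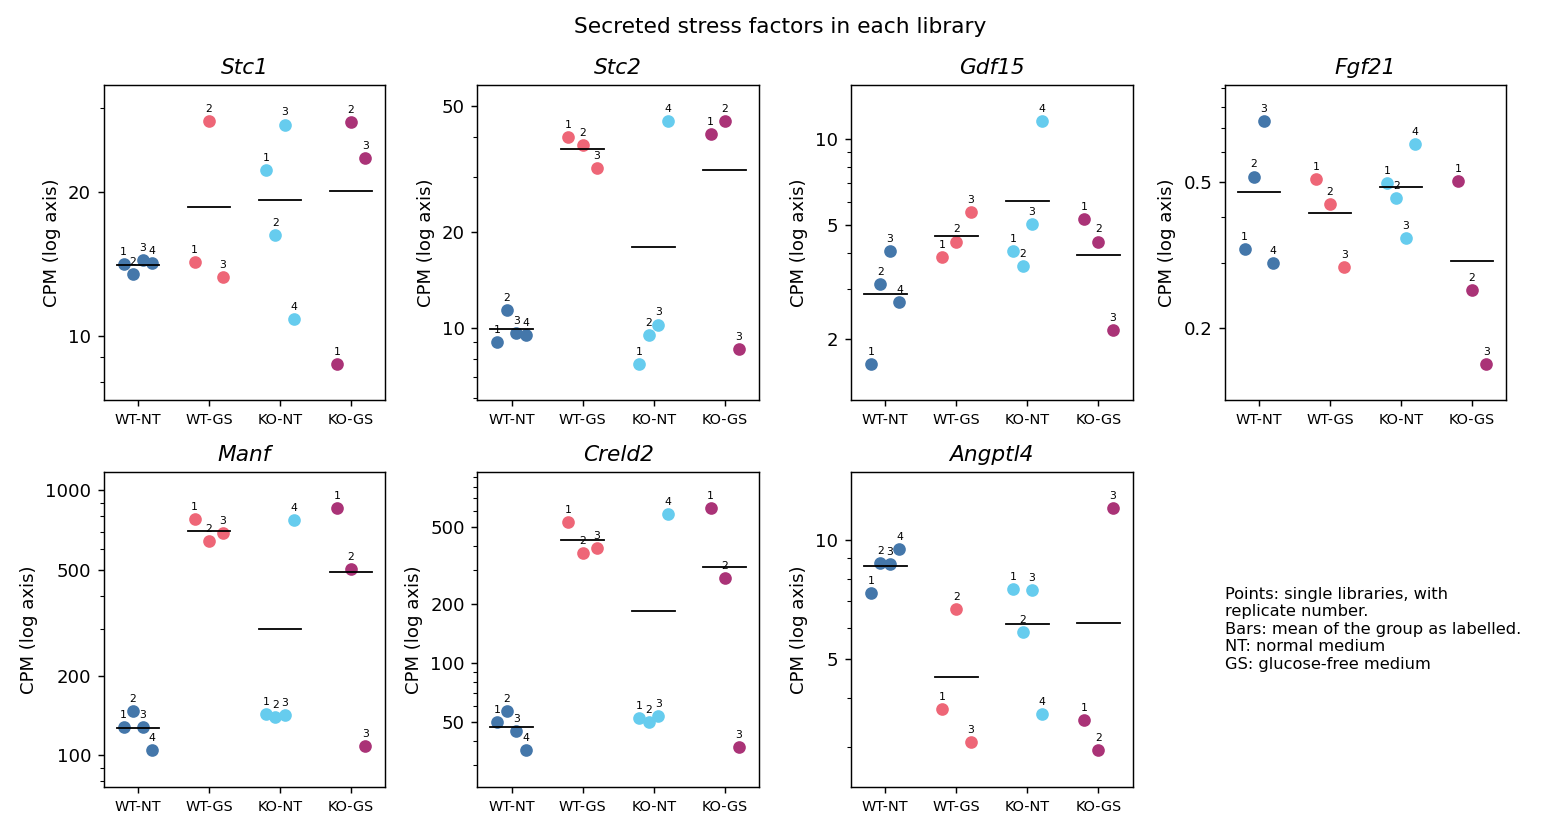
Level of each member in each library, in CPM on a log axis, with points for single libraries numbered by replicate and a bar at the mean of each group as labelled. Manf, Creld2 and Stc2 are high in WT-GS 1 to 3, KO-GS 1 and 2 and the library labelled KO-NT 4, and low in the others, including the library labelled KO-GS 3.

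Stc1, the second stanniocalcin, is best known for its role in calcium and phosphate handling and for its induction by low oxygen. In wild-type cells it was at 14.1, 13.5, 14.4 and 14.2 CPM in WT-NT 1 to 4 and at 14.3, 28.2 and 13.3 CPM in WT-GS 1 to 3. WT-GS 2 alone was high, and the other starved libraries lay beside those in normal medium. The log2 change was 0.44 (SE 0.396, edgeR adjusted p = 0.403), and it was 0.028 without WT-GS 2. The summed level of the 8 measured skeletal muscle markers was also highest in WT-GS 2, with 3 of the 8 at a count of 0 there. It was 248 CPM, against 81.2 to 145 CPM in the other wild-type libraries. WT-GS 3, with the least Stc1 of these libraries at 13.3 CPM, had the next highest sum, 145 CPM. The 6 tested markers of that list had a median log2 change of -1.73 with starvation in wild type, so the sum does not stand for the list as a whole, and its part in the Stc1 level was not tested.

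Gdf15 is a distant member of the TGF-beta family that acts through the receptor Gfral in the hindbrain and is a target of CHOP, ATF4 and p53. It was at 1.64, 3.11, 4.05 and 2.70 CPM in WT-NT 1 to 4 and at 3.87, 4.38 and 5.54 CPM in WT-GS 1 to 3. The groups overlapped, since WT-NT 3 lay above WT-GS 1. The log2 change was 0.72 (SE 0.426, edgeR adjusted p = 0.207). It passed narrowly without libraries KO-NT 4 and KO-GS 3, a fit that called 39.6% of genes, 20.4% higher and 19.1% lower (0.74, SE 0.27, edgeR adjusted p = 0.0498), and it did not pass in the wild-type libraries alone (edgeR adjusted p = 0.107).

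Fgf21, a fasting hormone made mainly by the liver, was scarce. It was at 0.328, 0.516, 0.729 and 0.3003 CPM in WT-NT 1 to 4 and at 0.507, 0.435 and 0.293 CPM in WT-GS 1 to 3, which are 24 to 54 counts a library. The groups overlapped fully, and the log2 change was -0.15 (SE 0.437, edgeR adjusted p = 0.815). At these counts a change of the size seen in Stc2 would stand well outside that SE, whereas a small one would not be detectable.

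Angptl4 was the member whose starved and unstarved wild-type libraries lay apart with the starved ones lower. It inhibits lipoprotein lipase and is a target of PPAR receptors and of low oxygen. Angptl4 was at 7.34, 8.76, 8.73 and 9.50 CPM in WT-NT 1 to 4 and at 3.74, 6.69 and 3.10 CPM in WT-GS 1 to 3. All starved libraries lay below all libraries in normal medium, WT-GS 2 being the closest. The log2 change was -0.89 (SE 0.457, edgeR adjusted p = 0.151). It passed in the wild-type libraries alone (edgeR adjusted p = 0.0361) and without libraries KO-NT 4 and KO-GS 3 (edgeR adjusted p = 0.0149). Within the wild-type libraries alone, the adjusted p ran from 0.00683 without WT-GS 2 to 0.128, and each of the other omissions ended the call.

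**Figure D2:**
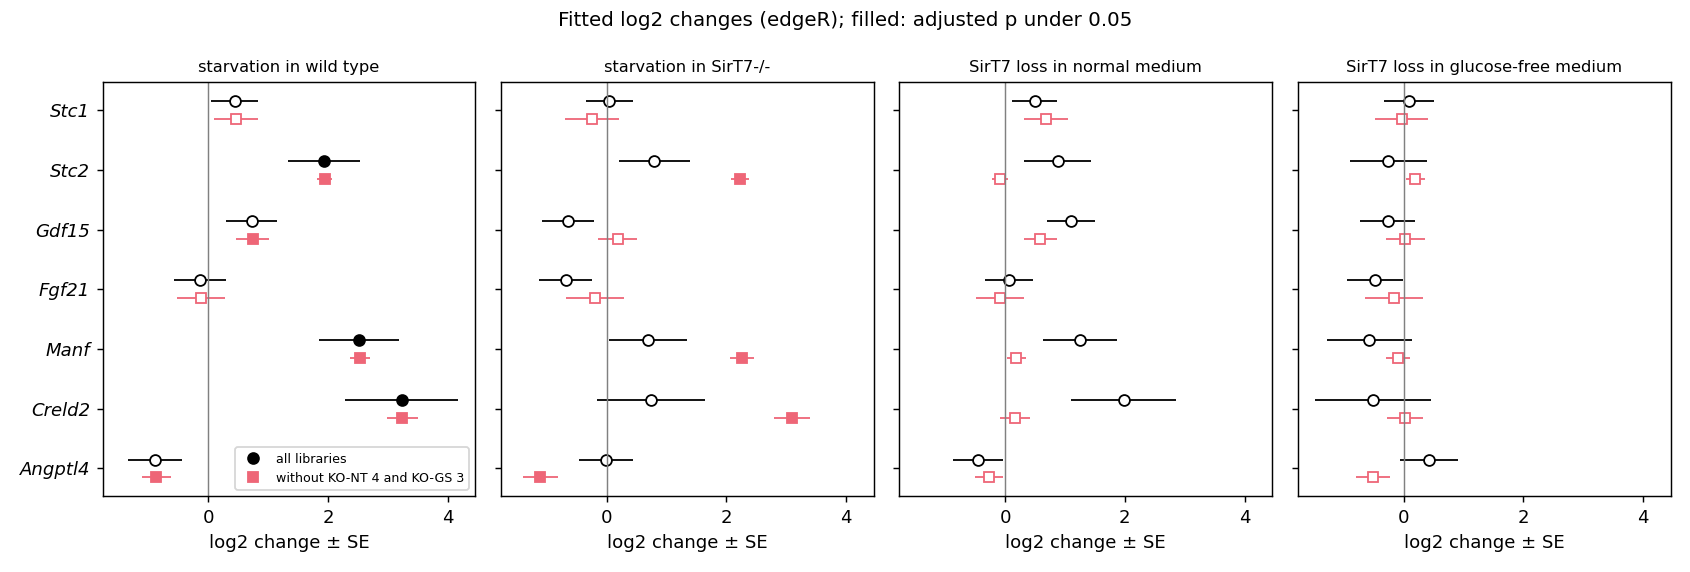
Fitted log2 change of each member in 4 comparisons, with bars of 1 SE, from edgeR on all 14 libraries (circles) and without libraries KO-NT 4 and KO-GS 3 (squares), filled where the adjusted p was under 0.05. The wild-type changes of Manf, Creld2 and Stc2 are alike in both fits, while those in SirT7-/- go from 0.69, 0.74 and 0.79 to 2.26, 3.10 and 2.23.

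In SirT7-/- fibroblasts the same comparison gave no call with the groups as labelled. Manf was at 144, 139, 142 and 776 CPM in KO-NT 1 to 4 and at 858, 506 and 109 CPM in KO-GS 1 to 3. Creld2 was at 52.4, 49.6, 53.3 and 582 CPM in KO-NT 1 to 4 and at 623, 274 and 37.1 CPM in KO-GS 1 to 3. Stc2 was at 7.71, 9.49, 10.3 and 44.8 CPM in KO-NT 1 to 4 and at 41.0, 44.8 and 8.58 CPM in KO-GS 1 to 3. For all 3 genes the library labelled KO-NT 4 lay between KO-GS 1 and KO-GS 2, and the library labelled KO-GS 3 lay below KO-NT 1 to 3 or, for Stc2, among them. The log2 changes over all libraries were 0.69 (SE 0.653) for Manf, 0.74 (SE 0.903) for Creld2 and 0.79 (SE 0.593) for Stc2, with edgeR adjusted p-values of 0.553, 0.653 and 0.457.

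With all libraries, edgeR called 0 of the 7 members and 0% of 15666 genes. At an unadjusted p under 0.05 there were 0 members and 2919 genes, and DESeq2 called 255 genes and limma-voom 0, with 0 members by either. Without libraries KO-NT 4 and KO-GS 3, a choice made after seeing the data, 3 of 7 members were higher and 1 lower, where 33.1% of genes were called, 18.6% higher and 14.5% lower. The groups then did not overlap for these 3, higher, as for 32.0% of genes, and for Angptl4, lower, as for 32.4%. The levels were then 142 ± 2.42 (SD, n = 3) and 682 ± 249 CPM (SD, n = 2) for Manf, 51.8 ± 1.94 and 448 ± 247 CPM for Creld2, and 9.15 ± 1.304 and 42.9 ± 2.70 CPM for Stc2. The spread of Manf and Creld2 in starved cells was wide, with KO-GS 1 above and KO-GS 2 below all 3 WT-GS libraries. The log2 changes were 2.26 (SE 0.196, edgeR adjusted p = 4.91e-05) for Manf, 3.10 (SE 0.301, edgeR adjusted p = 7.59e-05) for Creld2 and 2.23 (SE 0.154, edgeR adjusted p = 1.47e-05) for Stc2. In that fit these 3 were also called with each further library left out, but leaving out KO-GS 1 or KO-GS 2 leaves 1 starved SirT7-/- library, whose spread is then assumed to be that of the other groups.

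Angptl4 was at 7.52, 5.87, 7.50 and 3.64 CPM in KO-NT 1 to 4 and at 3.51, 2.94 and 12.1 CPM in KO-GS 1 to 3. The library labelled KO-NT 4 was the lowest of its group and the library labelled KO-GS 3 the highest of all 14. The log2 change was -0.016 (SE 0.447, edgeR adjusted p = 0.987) over all libraries and -1.11 (SE 0.291, edgeR adjusted p = 0.0142) without these 2. Without KO-GS 2 as well, which leaves KO-GS 1 as the only starved SirT7-/- library and takes the spread from the other groups, the edgeR adjusted p was 0.0733.

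Gdf15 was at 4.06, 3.61, 5.04 and 11.5 CPM in KO-NT 1 to 4 and at 5.27, 4.38 and 2.15 CPM in KO-GS 1 to 3. Its highest value of all libraries was thus in the library labelled KO-NT 4, at more than the level in any starved wild-type library. The log2 change was -0.64 (SE 0.433, edgeR adjusted p = 0.408) over all libraries and 0.18 (SE 0.323, edgeR adjusted p = 0.695) without the 2. Fgf21 was at 0.495, 0.451, 0.350 and 0.633 CPM in KO-NT 1 to 4 and at 0.501, 0.253 and 0.160 CPM in KO-GS 1 to 3. The groups overlapped, and the log2 changes were -0.69 (SE 0.445, edgeR adjusted p = 0.388) and -0.20 (SE 0.481, edgeR adjusted p = 0.78).

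Stc1 was at 22.3, 16.3, 27.7 and 10.8 CPM in KO-NT 1 to 4 and at 8.73, 28.1 and 23.6 CPM in KO-GS 1 to 3. It varied widely within each group, and KO-GS 1 and KO-GS 2, which lay together for Stc2, were the lowest and the highest of its values here. The log2 change was 0.042 (SE 0.397, edgeR adjusted p = 0.958) over all libraries and -0.25 (SE 0.45, edgeR adjusted p = 0.697) without the 2. As in wild type, the library with the most Stc1 was also the one with the highest summed skeletal muscle markers, at 195 CPM in KO-GS 2 against 82.2 to 135 CPM in the other SirT7-/- libraries. KO-NT 3 was next in both, at 27.7 CPM of Stc1 and a sum of 135 CPM. KO-GS 3 and KO-NT 1, at 23.6 and 22.3 CPM of Stc1, had sums of 88.5 and 82.2 CPM. WT-GS 2 and KO-GS 2 also had the lowest macrophage marker sums of their genotypes, 13.8 and 122 CPM. Endothelial marker sums were highest elsewhere, in WT-NT 4 (25.7 CPM) and KO-GS 1 (35.7 CPM). Whether muscle or other cells had a part in the Stc1 level was not tested.

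**Figure D3:**
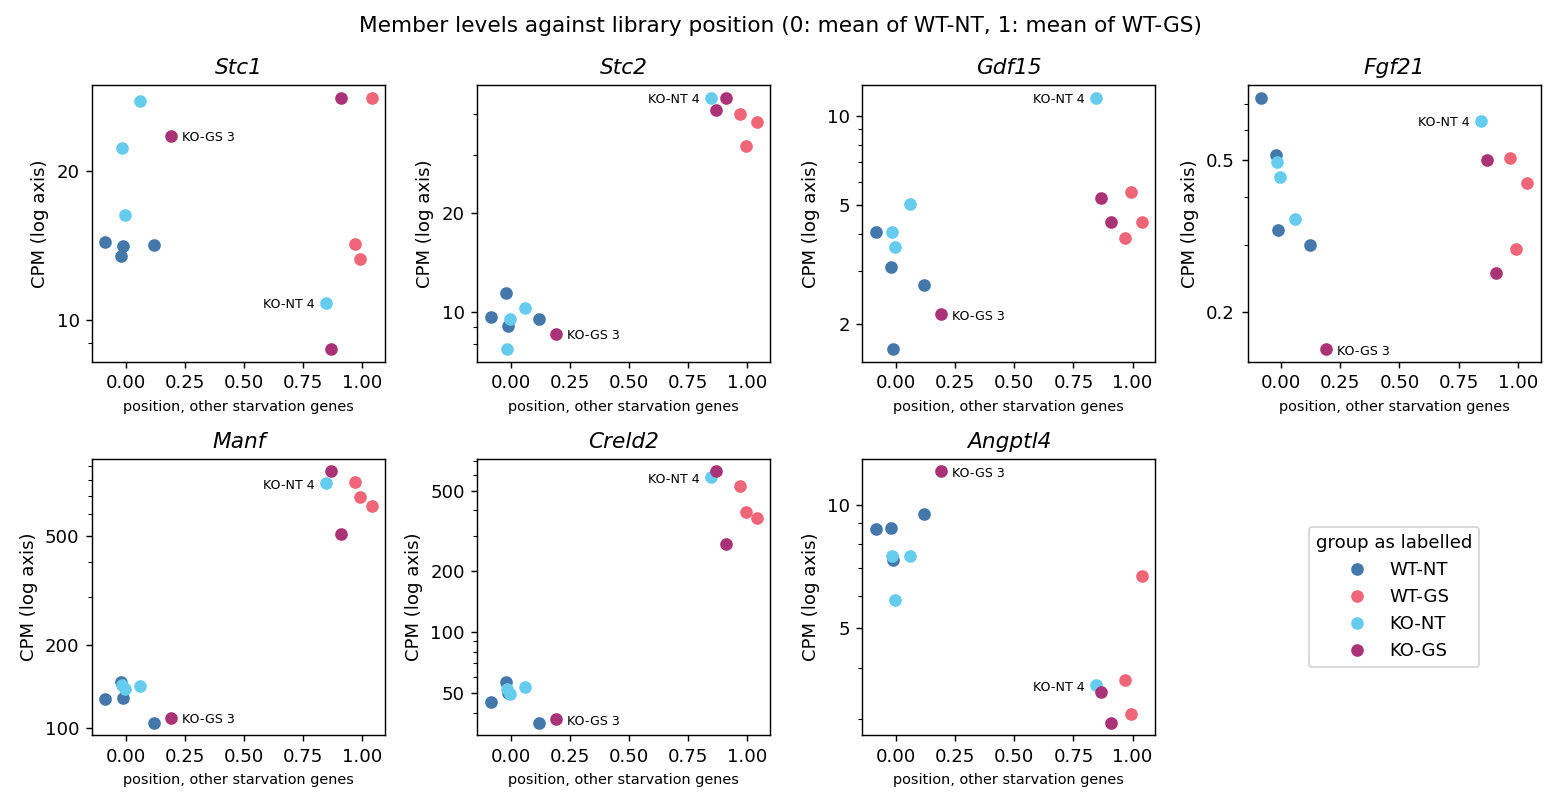
Level of each member (CPM, log axis) against the position of its library between normal (0) and starved (1) wild-type cells over 5081 other starvation genes, with 1 point per library coloured by its labelled group. Manf, Creld2 and Stc2 follow the position, with KO-NT 4 at 0.845 among the high libraries and KO-GS 3 at 0.191 among the low ones, whereas Stc1 and Fgf21 are spread over both ends.

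Between the genotypes no member was called in either medium. These comparisons use the same libraries as those above and are not independent of them. In normal medium, edgeR called 0 members and 0.00638% of 15666 genes, which is Sirt7 alone. Creld2 and Gdf15 had an unadjusted p under 0.05, with log2 changes of 1.98 (SE 0.873, unadjusted p = 0.0419, edgeR adjusted p = 0.968) and 1.09 (SE 0.401, unadjusted p = 0.0176, edgeR adjusted p = 0.968). Without libraries KO-NT 4 and KO-GS 3, Creld2 was at 0.16 (SE 0.247, edgeR adjusted p = 0.88) and Gdf15 at 0.59 (SE 0.27, edgeR adjusted p = 0.626). In that fit 0 members and 0.0252% of genes were called. Manf differed by 1.26 (SE 0.618, unadjusted p = 0.0639) with all libraries and by 0.19 (SE 0.164) without the 2, and Stc2 by 0.88 (SE 0.559, unadjusted p = 0.14) and by -0.088 (SE 0.13), a turn of sign. The library left out here, KO-NT 4, was the one of its group that was high for these genes, so the smaller values and SEs are partly set by that choice.

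Stc1 was the only member whose KO-NT 1 to 3, at 16.3 to 27.7 CPM, lay above all 4 WT-NT libraries, at 13.5 to 14.4 CPM. A gap in that direction was found for 4.67% of genes. Its log2 change without the 2 libraries was 0.68 (SE 0.372, edgeR adjusted p = 0.671), and the library labelled KO-NT 4 lay below the wild-type values, at 10.8 CPM.

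In glucose-free medium 0 members were called, against 0.00638% of genes, and 0 members had an unadjusted p under 0.05 with all libraries or without the 2, where 0.00630% of genes were called. Without the library labelled KO-GS 3, the means of the starved groups, wild type first, were 706 ± 71.3 (SD, n = 3) and 682 ± 249 CPM (SD, n = 2) for Manf, 428 ± 88.5 and 448 ± 247 CPM for Creld2, and 36.6 ± 4.11 and 42.9 ± 2.70 CPM for Stc2. The log2 differences with all libraries were -0.57 (SE 0.705) for Manf, -0.51 (SE 0.974) for Creld2 and -0.25 (SE 0.638) for Stc2, and in the fit without the 2 libraries they were -0.091 (SE 0.196), 0.023 (SE 0.295) and 0.20 (SE 0.153), so that Creld2 and Stc2 turned sign. Angptl4 turned sign as well, from 0.42 (SE 0.479, edgeR adjusted p = 0.901) to -0.52 (SE 0.286, edgeR adjusted p = 1). Without the 2 libraries the order of the 4 groups was, for each of the 3 genes that rose in wild type, both starved groups above both groups in normal medium, and within a medium the libraries of the genotypes overlapped in normalized CPM.

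The difference between the genotypes in the response itself was called for 0 members and 0% of 15666 genes by edgeR, with 1 member, Gdf15, and 950 genes at an unadjusted p under 0.05. DESeq2 called 5 genes and limma-voom 0, with 0 members by either. Gdf15 differed by -1.36 (SE 0.608, unadjusted p = 0.0438, edgeR adjusted p = 0.68) with all libraries and by -0.56 (SE 0.425, edgeR adjusted p = 1) without the 2. For Manf, Creld2 and Stc2 the difference with all libraries was -1.83 (SE 0.938), -2.49 (SE 1.306) and -1.14 (SE 0.848), with unadjusted p-values of 0.0742, 0.08 and 0.204 and edgeR adjusted p-values of 0.68, 0.68 and 0.69. Without the 2 libraries it was -0.28 (SE 0.256), -0.14 (SE 0.385) and, with the sign turned, 0.29 (SE 0.201).

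The members that rose were compared with listed genes of the pathways that are known to drive them. Over all genes, 12.9% were called higher and 13.1% lower in wild type. In the fit without the 2 libraries these shares were 18.6% and 14.5% in SirT7-/- cells, and 20.4% and 19.1% in wild type. That fit calls more genes in wild type, so counts from these fits are not alike. Wild-type counts below are over all libraries unless said otherwise. Of 18 targets of ATF6 and XBP1, 16 were higher and 0 lower in starved wild-type cells, with a median log2 change of 2.31 against -0.039 over all genes tested. Hspa5, the main chaperone of the endoplasmic reticulum, changed by 2.34 (SE 0.592), its Hsp90 relative Hsp90b1 by 2.36 (SE 0.609), the lectin chaperone Calr by 1.79 (SE 0.466) and the co-chaperone Dnajb11 by 1.81 (SE 0.473), with edgeR adjusted p-values of 0.0246, 0.0249, 0.025 and 0.0252. In SirT7-/- cells without the 2 libraries the counts were 17 higher and 0 lower of 18 (median 2.08 against 0.031 over all genes), and over all libraries 0 and 0 (median 0.69). Wild type in the fit without the 2 libraries also had 17 higher and 0 lower.

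Of 18 targets of ATF4 and CHOP, 7 were higher and 2 lower in wild type, with a median of 0.64. The 2 that fell were Sesn2, a brake on mTORC1 (log2 change -0.38, SE 0.1, edgeR adjusted p = 0.0254), and the transcription factor Atf5 (-0.50, SE 0.133, edgeR adjusted p = 0.0259). Among those that rose were the transcription factor Atf3, from 10.3 ± 3.86 (SD, n = 4) to 32.5 ± 6.92 CPM (SD, n = 3), and the stress regulator Nupr1, from 98.3 ± 13.7 to 195 ± 19 CPM. Ddit3, which encodes CHOP and is named here after its values were seen, changed by 2.49 (SE 0.752, edgeR adjusted p = 0.0343). Ddit3 had the largest log2 change of the 18. Gdf15 and Fgf21, usually counted as targets of this branch, were not called in this comparison, and neither were 9 of the 18 listed genes. Without the 2 libraries, 12 of the 18 were higher and 4 lower in wild type (median 0.66). In SirT7-/- cells 9 of the 18 were higher and 3 lower in that fit (median 0.50). Ddit3 changed by 2.71 (SE 0.219, edgeR adjusted p = 3.24e-05), and those that fell were Atf5 (-0.45), the cystine carrier Slc7a11 (-0.81) and the mTORC1 inhibitor Ddit4 (-0.77).

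Of 14 hypoxia targets, a group that is known to include Stc1 and Angptl4, 6 were higher and 0 lower (median 0.69). The examples were the collagen hydroxylase P4ha1 (0.64, SE 0.184, edgeR adjusted p = 0.0306), the oxidase Ero1l (1.85, SE 0.534, edgeR adjusted p = 0.0307), which is also raised in endoplasmic reticulum stress, Ndrg1 (1.05, SE 0.31, edgeR adjusted p = 0.0326) and Ankrd37 (1.09, SE 0.345, edgeR adjusted p = 0.0381). Of 11 tested PPAR targets, a list in which Angptl4 would belong, 2 were higher and 1 lower (median -0.089). These counts were near the shares over all genes, 12.9% and 13.1%. The acyl-CoA dehydrogenase Acadl and the carnitine carrier Slc25a20 rose by 0.32 (SE 0.0882) and 0.37 (SE 0.118), and the mitochondrial carrier Ucp2 fell by 1.39 on the log2 scale (SE 0.347), with edgeR adjusted p-values of 0.0276, 0.0379 and 0.0246. Of 13 p53 targets, 2 were higher and 1 lower (median 0.10), also near the shares over all genes. They were the death receptor Tnfrsf10b (0.67, SE 0.174) and the ubiquitin ligase Mdm2 (0.88, SE 0.273) against Sesn1 (-0.78, SE 0.195). The edgeR adjusted p-values were 0.0248, 0.037 and 0.0246. The hypoxia list had, in SirT7-/- cells without the 2 libraries, 8 of 14 higher and 0 lower (median 0.84). Among these was Bnip3, named after its values were seen, at 2.03 (SE 0.216). In that fit Angptl4 was called lower, at -1.11 (SE 0.291, edgeR adjusted p = 0.0142). Stc1, at -0.25 (SE 0.45, edgeR adjusted p = 0.697), was not called, and its sign turned when a further library was left out. The PPAR list had 3 of 12 higher, Cpt1a (0.60), Acadl (0.35) and Acot2 (1.06), and 2 lower, Hadha (-0.21) and Ucp2 (-1.41), with a median of 0.25. The p53 list had 4 of 13 higher, Mdm2 (1.176), Tnfrsf10b (0.82), Zmat3 (0.61) and Perp (4.46), and 0 lower, with a median of 0.59. In the same fit wild type had 9 of 14 hypoxia targets higher and 0 lower. It had 4 higher and 2 lower of 12 PPAR targets, and 3 higher and 1 lower of 13 p53 targets.

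**Figure D4:**
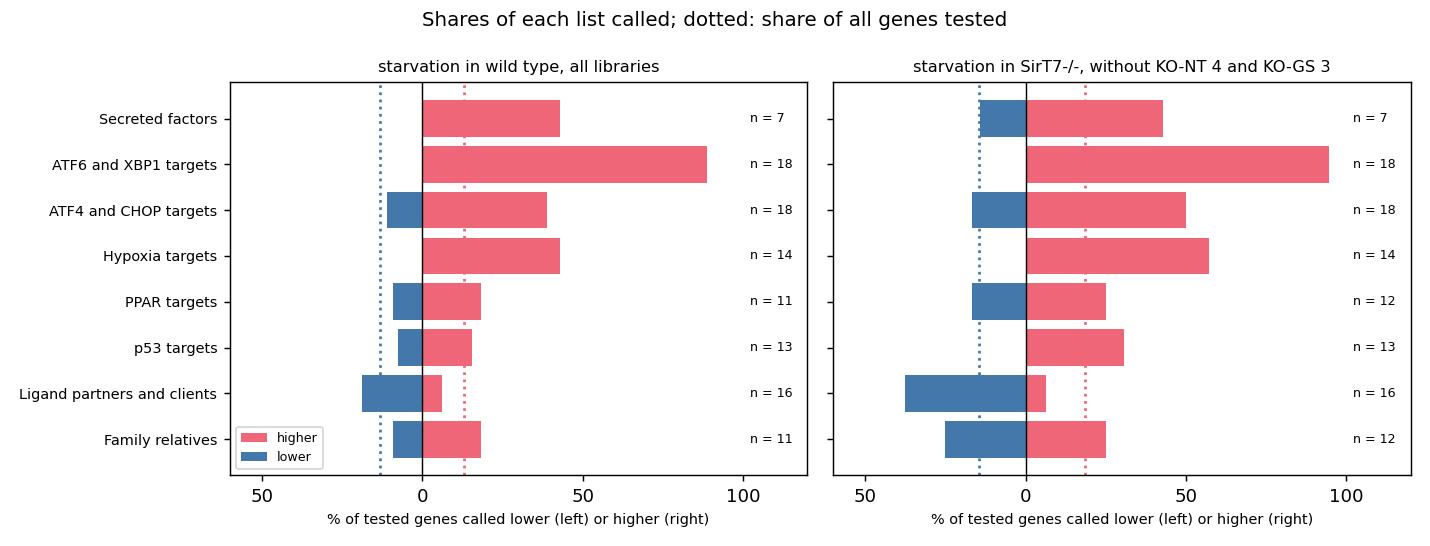
Share of the tested genes of each list that edgeR called higher (right) or lower (left) with starvation in wild type over all libraries and in SirT7-/- without libraries KO-NT 4 and KO-GS 3, with n the genes tested and dotted lines at the shares over all genes (12.9% and 13.1%, then 18.6% and 14.5%). The list of ATF6 and XBP1 targets has the highest share called higher of the 8 lists in both panels, with 16 and 17 of 18. The panels come from unlike fits, so their shares do not compare the genotypes.

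The receptors, clients and partners of the secreted factors formed a list of 19 genes, of which 16 were tested. The Gdf15 receptor Gfral was at a count of 0 in all 14 libraries, each of which allows at most 0.0327 to 0.0502 CPM, and the Fgf21 co-receptor Klb averaged 0.1103 ± 0.112 CPM (SD, n = 4) in WT-NT against 0.240 ± 0.215 CPM (SD, n = 3) with starvation. Over all genes, 12.9% were higher and 13.1% lower with starvation in wild type, and 18.6% and 14.5% in SirT7-/- cells without the 2 libraries. In starved wild-type cells 1 partner was higher and 3 were lower (median -0.17), too few to set the list apart from all genes. The higher was Nptn, a membrane receptor of Manf (0.30, SE 0.101, edgeR adjusted p = 0.047). The lower were Pappa2, a pappalysin (-1.47, SE 0.338, edgeR adjusted p = 0.0245), Igfbp5, a growth factor binding protein that the pappalysins cut (-2.20, SE 0.75, edgeR adjusted p = 0.0484), and the proprotein convertase Furin (-0.82, SE 0.235, edgeR adjusted p = 0.0302). Pappa2 fell from 3.33 ± 0.597 (SD, n = 4) to 1.16 ± 0.295 CPM (SD, n = 3) and Igfbp5 from 523 ± 208 to 110 ± 15 CPM, in the libraries where Stc2 rose. The pappalysin Pappa and the binding protein Igfbp4, also on the list, were not called here. They were not called in SirT7-/- cells without the 2 libraries either. A link of these falls to Stc2 was not tested. In SirT7-/- cells without the 2 libraries, 1 of 16 was higher, the lipase maturation factor Lmf1 (1.21, SE 0.238, edgeR adjusted p = 0.00347), and 6 were lower, among them Furin (-1.14, SE 0.149, edgeR adjusted p = 0.000374), Igfbp5 (-2.56, SE 0.343, edgeR adjusted p = 0.000429) and Pappa2 (-0.78, SE 0.271, edgeR adjusted p = 0.0479). The other lower ones included 2 receptors that return escaped residents such as Manf to the endoplasmic reticulum, Kdelr3 (-0.90, SE 0.141, edgeR adjusted p = 0.00102) and Kdelr2 (-0.33, SE 0.109, edgeR adjusted p = 0.0389), and the growth factor receptor Fgfr2 (-1.08, SE 0.265, edgeR adjusted p = 0.0105). In wild type, Kdelr3 had a log2 change of -0.62 (SE 0.239, edgeR adjusted p = 0.0691). Without the 2 libraries, wild type had 2 of the 16 tested genes of this list higher and 5 lower.

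Of 11 tested relatives of the members, 2 were higher and 1 lower in starved wild-type cells (median -0.35). The shares over all genes in that fit, 12.9% and 13.1%, were near this. In the wild-type libraries alone, 3 of 11 were higher and 4 lower, where 33.8% of genes were called. Without the 2 libraries, wild type had 3 of 12 higher and 4 lower, against 20.4% and 19.1% of all genes. In SirT7-/- cells without the 2 libraries those shares were 18.6% and 14.5%. Cdnf, the paralog of Manf, went from 1.79 ± 0.831 (SD, n = 4) to 3.76 ± 0.959 CPM (SD, n = 3) (log2 change 1.11, SE 0.367, edgeR adjusted p = 0.0441). Creld1, the paralog of Creld2, went from 27.2 ± 5.59 to 55.6 ± 6.81 CPM (1.08, SE 0.371, edgeR adjusted p = 0.0497). Both paralogs were called higher, as Manf and Creld2 were, with smaller log2 changes. With single libraries left out, the changes stayed at 0.975 to 1.48 for Cdnf and 0.986 to 1.21 for Creld1. Their edgeR adjusted p then reached 0.124 and 0.131. Angptl1, a relative of Angptl4, fell from 1.51 ± 1.03 to 0.141 ± 0.0619 CPM (-3.35, SE 0.819, edgeR adjusted p = 0.0245). Of 12 tested in SirT7-/- cells without the 2 libraries, 3 were higher, Cdnf (1.19), Creld1 (1.29) and Angptl6 (2.98), and 3 lower, Angptl1 (-2.49), Tgfb1 (-0.93) and Gdf11 (-1.09), with a median of -0.25.

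Over the 14 libraries, the members' centred log2 profiles were compared by their root mean square difference, in which a smaller value means closer profiles. The profiles were not scaled, so 2 genes that vary little come out close whether or not they share a course. Genes that are high in the same libraries by unlike amounts come out further apart. Among members the smallest values were 0.312 for Stc2 and Manf, 0.417 for Manf and Creld2, 0.598 for Gdf15 and Fgf21, and 0.663 for Stc2 and Creld2. The largest was 2.22 for Creld2 and Angptl4. Of 10322 genes at a mean of at least 5 CPM, the nearest to Manf were Hsp90b1 (0.134), Herpud1 (0.147) and Hspa5 (0.175). The nearest to Creld2 were Sdf2l1 (0.247), Hyou1 (0.263) and Pdia4 (0.284), and the nearest to Stc2 were Satb1 (0.186), Pkn3 (0.23) and Hspa5 (0.245). Chaperones and quality-control genes of the endoplasmic reticulum thus made up all 3 neighbours of Manf and of Creld2, and 1 of the 3 of Stc2. For Angptl4 the nearest were Thbs2 (0.284), Mr1 (0.292) and Pak1 (0.295), for Stc1 Rrm2 (0.283), Bpgm (0.306) and Nipal1 (0.319), for Gdf15 Trappc6a (0.347), Slc35e4 (0.351) and Snhg8 (0.357), and for Fgf21 Ydjc (0.277), Ung (0.319) and Thap3 (0.329).

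Markers of fibroblasts and of other cells were also compared between the media. Over all genes 12.9% were called higher and 13.1% lower in wild type. Without the 2 libraries these shares were 18.6% and 14.5% in SirT7-/- cells. In bulk RNA, fewer cells of a type and less RNA per cell cannot be told apart. The 14 macrophage markers summed to 336 to 2213 CPM in WT-NT and to 13.8 to 384 CPM after starvation in wild type, and 3 of 14, Cd14, Mrc1 and Cx3cr1, were called lower and 0 higher. Only Tyrobp was at a count of 0 in a library, in 1 of 14. The 10 fibroblast markers summed to 43179 to 50674 CPM in WT-NT and to 24169 to 26099 CPM after starvation, and 6 of 10 were called lower. Of 6 tested adipocyte markers 0 were called, and their sum was 10.3 to 45.4 CPM over all libraries, with Lep at 0 in 11 of 14 libraries. Of 6 tested muscle markers 1 was higher, Acta1, and 1 lower, Tnni2, with Ckm at 0 in all libraries, and of 7 tested endothelial markers 0 were higher and 1 lower, Egfl7, with Tie1 at 0 in 10 libraries. Between the media in wild type, Manf, Creld2 and Stc2 went up and the macrophage sum went down. In WT-GS 1, 3 and 2 the macrophage sum was at 384, 316 and 13.8 CPM. In the same order Manf was at 783, 692 and 642 CPM, Creld2 at 529, 390 and 365 CPM, and Stc2 at 39.9, 32.0 and 37.8 CPM. In SirT7-/- cells without the 2 libraries, 0 of 14 macrophage markers were called, and their sums overlapped (432 to 789 CPM in KO-NT, 122 and 1176 CPM in KO-GS), while 6 of 10 fibroblast markers were lower. In that fit wild type had 3 macrophage and 7 fibroblast markers lower. The part of these cells in the members' levels was not tested.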

How the data were processed

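Total RNA of 14 mouse embryonic fibroblast libraries was sequenced after TruSeq preparation, per the labels' protocols. Per the submitters' processing notes, FastQC 0.11.3, Trimmomatic 0.36, HISAT2 2.1.0, SAMtools, StringTie 1.3.3, DESeq2 1.18.1 and build mm9 were used; the annotation and strand setting are not given in the sources used here, so overlapping genes cannot be told apart. The deposited table holds estimated counts for 24015 genes, as whole numbers, and these were fitted as deposited. The table gives symbols without positions.

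The test was the quasi-likelihood F-test of edgeR 4.0.16 in R 4.3.3, on all 14 libraries with TMM normalization and a mean for each group. Filtering with filterByExpr (minimum count 10, minimum total 15) left 15666 genes. P-values were adjusted over all of them (Benjamini-Hochberg), with calls at an adjusted p under 0.05. Standard errors (SE) were worked back from the F-test. CPM values were scaled by each library's total, and only the overlap of groups uses TMM-normalized CPM. There were 5 comparisons: starvation in wild type and in SirT7-/-, SirT7 loss with and without glucose, and the genotypes' difference in response. A positive change is higher in starved or in SirT7-/- cells. The members, the 12 lists of pathway genes, partners, relatives and cell markers, and the tests were chosen with earlier results of these data known.

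Named genes are the members, Sirt7, up to 4 genes per list with the smallest p for starvation in wild type, any gene behind a count of 5 or fewer, and the 3 nearest profiles per member at a mean of at least 5 CPM (prior count 2 for log2 values). Further genes of a list were named after their values were seen: Ddit3, Bnip3, Kdelr2, Kdelr3, Fgfr2, Pappa, Igfbp4, Gfral and Klb. Genes behind the list counts of wild type in the reduced fits were not named. Alternatives were DESeq2 1.42.0, limma-voom (limma 3.58.1), RLE normalization, no normalization beyond library size, a fit with no filter, a filter at 1 CPM throughout a group with a mean count of at least 50, fits on the compared groups only, a replicate block, each library left out, and KO-NT 4 with KO-GS 3 left out, alone or with WT-NT 4. Leaving out libraries within the wild-type fit and within the fit without those 2 was added after seeing the data. Only the edgeR test of starvation in wild type was checked on simulated counts, in which no library stood apart as KO-NT 4 and KO-GS 3 do. The other comparisons, tools and reduced fits were not checked in this way.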

Additional observations from a re-analysis of the deposited data

Results flagged for a closer look

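In groups of 4 libraries, the gap between the most extreme library and its neighbour was compared with the group's whole range for the members and Sirt7, in 16 groups. It passed Dixon's critical value in 3 of them, all for the library labelled KO-NT 4. Stc2 was at 44.8 CPM there, against 7.71 to 10.3 CPM in KO-NT 1 to 3. Manf was at 775.7 CPM, against 139 to 144 CPM. Creld2 was at 582 CPM, against 49.6 to 53.3 CPM. The test flags some groups by chance alone, and the 3 values come from 1 library.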

How the results depend on the processing

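The direction of starvation in wild type was kept by Stc1, Stc2, Gdf15, Manf, Creld2 and Angptl4 under each alternative tried, but Fgf21 changed sign. Without libraries KO-NT 4 and KO-GS 3, 5 members and 6280 genes were called for starvation in wild type, in place of 3 and 4063, and 7444 genes without WT-NT 4 as well. With single libraries left out, these counts ran from 0 to 4 members and 0 to 5621 genes. Among these, leaving out WT-NT 3, WT-GS 1 or WT-GS 2 gave 0 genes by edgeR, with 5752, 5312 and 5585 at an unadjusted p under 0.05, leaving out WT-GS 3 gave 1 and WT-NT 1 gave 1371. Whether replicate numbers pair the libraries is not known. Deviations from the group means correlated at -0.116 to 0.458 for the 19 pairs with the same number. For the 54 others they correlated at -0.545 to 0.461. These ranges overlap and do not settle pairing, and KO-NT 4 and KO-GS 3 shift the means of their groups. With the replicate block, 6633 genes and 3 members were called in wild type, 3096 genes and 0 members for starvation in SirT7-/-, and 2 genes for SirT7 loss in normal medium. In the wild-type libraries only, single omissions gave 2841 to 6668 genes in place of 5161, and in the fit without the 2 libraries 3489 to 6291 in place of 5251 for SirT7-/-, where Stc1 was called without KO-GS 2 (log2 change -1.42, edgeR adjusted p = 0.0394), a value that rests on KO-GS 1 alone as the starved arm. Omissions that leave 1 library in an arm assume that it varies like the other groups.

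For starvation in SirT7-/-, DESeq2 called 255 genes; leaving out the 2 libraries gave 5251 genes and 4 members, and leaving out WT-NT 4 too gave 6291 and 4. Single omissions gave 0 to 3301 genes and 0 to 3 members, both highest without the library labelled KO-NT 4. For SirT7 loss in normal medium 23 genes were called by DESeq2, 3 by limma-voom, 2 with RLE normalization, 2 with the stricter filter, 4 without the 2 libraries, 5 without WT-NT 4 too, and 1 to 3 with single omissions. For loss in glucose-free medium DESeq2 called 7, omitting 3 libraries gave 2, and single omissions 1 to 2. For the difference of responses DESeq2 called 5, omitting 3 libraries gave 1, and single omissions 0 to 1. The cause was not tested.

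Of the log2 changes that turned sign, 3 for starvation in SirT7-/- were called under some alternative: Stc1 above, Creld2, called higher in 3 of 24 alternatives, and Angptl4, called lower in 2 of 24. Without the 2 libraries, then without WT-NT 4 too, the changes for starvation in SirT7-/- were -0.25 and -0.25 for Stc1 and 0.18 and 0.18 for Gdf15. For loss in normal medium they were -0.088 and -0.12 for Stc2, and -0.092 and -0.26 for Fgf21. For loss in glucose-free medium they were -0.035 and -0.035 for Stc1, 0.20 and 0.20 for Stc2, 0.031 and 0.031 for Gdf15, 0.023 and 0.023 for Creld2, and -0.52 and -0.52 for Angptl4. For the difference of responses they were 0.29 and 0.32 for Stc2, -0.25 and -0.28 for Angptl4, and 0.11 for Fgf21 in the latter. Stc1 in SirT7-/- starvation was -0.055 by limma-voom and -0.15 with the replicate block, Angptl4 there was 0.010 with library size alone, and Pecam1 in wild type was 0.67 by limma-voom.

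With single libraries left out, starvation in wild type ran from -0.32 to 0.15 for Fgf21 (-0.33 to 0.14 in the wild-type libraries only) and -1.91 to 0.33 for Pecam1. Starvation in SirT7-/- ran from -0.29 to 0.42 for Stc1, -0.22 to 2.54 for Creld2 and -0.95 to 0.31 for Angptl4, and without the 2 libraries from -1.42 to 0.35 for Stc1 and -0.76 to 0.14 for Fgf21. Loss in normal medium ran from -0.075 to 1.13 for Stc2 and -0.10 to 0.36 for Fgf21. Loss in glucose-free medium ran from -0.24 to 0.51 for Stc1, -0.62 to 0.19 for Stc2, -0.52 to 0.021 for Gdf15, -1.47 to 0.012 for Creld2 and -0.52 to 0.80 for Angptl4. The difference of responses ran from -0.73 to 0.015 for Stc1 and -0.063 to 1.26 for Angptl4. Depth limits Fgf21 above all, with 13 to 58 counts a library.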

Other observations

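The ratio of Creld2 to Manf was computed after both levels had been seen and was not tested. It averaged 0.368 ± 0.0252 (SD, n = 4) in WT-NT and 0.602 ± 0.0635 (SD, n = 3) in WT-GS. In SirT7-/- cells it was 0.364, 0.357 and 0.374 in KO-NT 1 to 3, 0.726 and 0.541 in KO-GS 1 and 2, 0.75 in the library labelled KO-NT 4 and 0.341 in the library labelled KO-GS 3. The ratio separated the libraries in the same way as the level of either gene. It is formed from these levels, and Creld2 rose more than Manf, so this is not independent of them.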
